A study of Mus musculus with 8 samples.

Results

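Retinoic acid, the active acid form of vitamin A, is made, carried, sensed and destroyed by a small set of proteins, and 9 genes of that set were followed in MIN6 cells, an insulin-producing beta-cell line from a mouse pancreatic tumour. They were the rows of the count table whose symbol was Aldh1a1, Aldh1a2 or Aldh1a3 (synthesis), Crabp1 or Crabp2 (intracellular carriers), Cyp26b1 (breakdown), or Rara, Rarb or Rarg (receptors), 9 of 55536 genes in all. The study asked what forced expression of the zinc-finger factor Klf4 does to the beta-cell transcriptome. The 4 control libraries came from MIN6 cells transfected for 48 h with the empty vector pcDNA 3, and the 4 Klf4 libraries from MIN6 cells transfected for 48 h with pGloMyc-Klf4, which carries Klf4. Both groups were labelled WT, both received Lipofectamine 3000, and each had replicates 1 and 2 in batch 1 and replicates 3 and 4 in batch 2. By their names the plasmids differ in backbone as well as in Klf4, so the effects of the backbone and of Klf4 cannot be told apart, and the share of cells that took up plasmid is not given in the sources used here. The extraction text speaks of islets, while each library is labelled MIN6. The labels call the replicates biological without saying how the cultures were kept apart, so p-values measure the spread between these libraries.

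Retinol is oxidised to retinaldehyde by retinol dehydrogenases, and retinaldehyde is oxidised irreversibly to retinoic acid by the ALDH1A enzymes. CRABP proteins bind the acid in the cytoplasm, CYP26 enzymes oxidise it for removal, and the nuclear receptors RARα, RARβ and RARγ bind it as heterodimers with RXR on response elements in DNA. The pathway is needed for pancreas development, and in mouse islets Aldh1a3 is best known as a gene that appears in failing, dedifferentiating beta cells.

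Of the 9 genes, 6 rose in Klf4-transfected cells (Aldh1a3, Crabp1, Crabp2, Cyp26b1, Rara and Rarg), none fell, Rarb and Aldh1a1 did not pass the threshold, and Aldh1a2 was too low to test. The threshold was a Benjamini-Hochberg adjusted p of 0.05 over 18266 tested genes, from the quasi-likelihood test of edgeR with a term for batch. In that comparison 21.1% of tested genes were higher, 15.5% were lower, and 36.6% changed in either direction. The 6 genes that rose were higher in every Klf4 library than in any control library, as were 17.2% of all tested genes, while 8.93% were lower in every Klf4 library. The median log2 fold change was 0.89 over the 8 tested genes of the set and -0.01 over all tested genes. Aldh1a3 reached the filter on low counts in its Klf4 libraries alone, so it had to differ to be tested. In a bulk sample, a change in the number of cells that express a gene and a change in RNA per cell cannot be told apart.

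**Figure D1:**
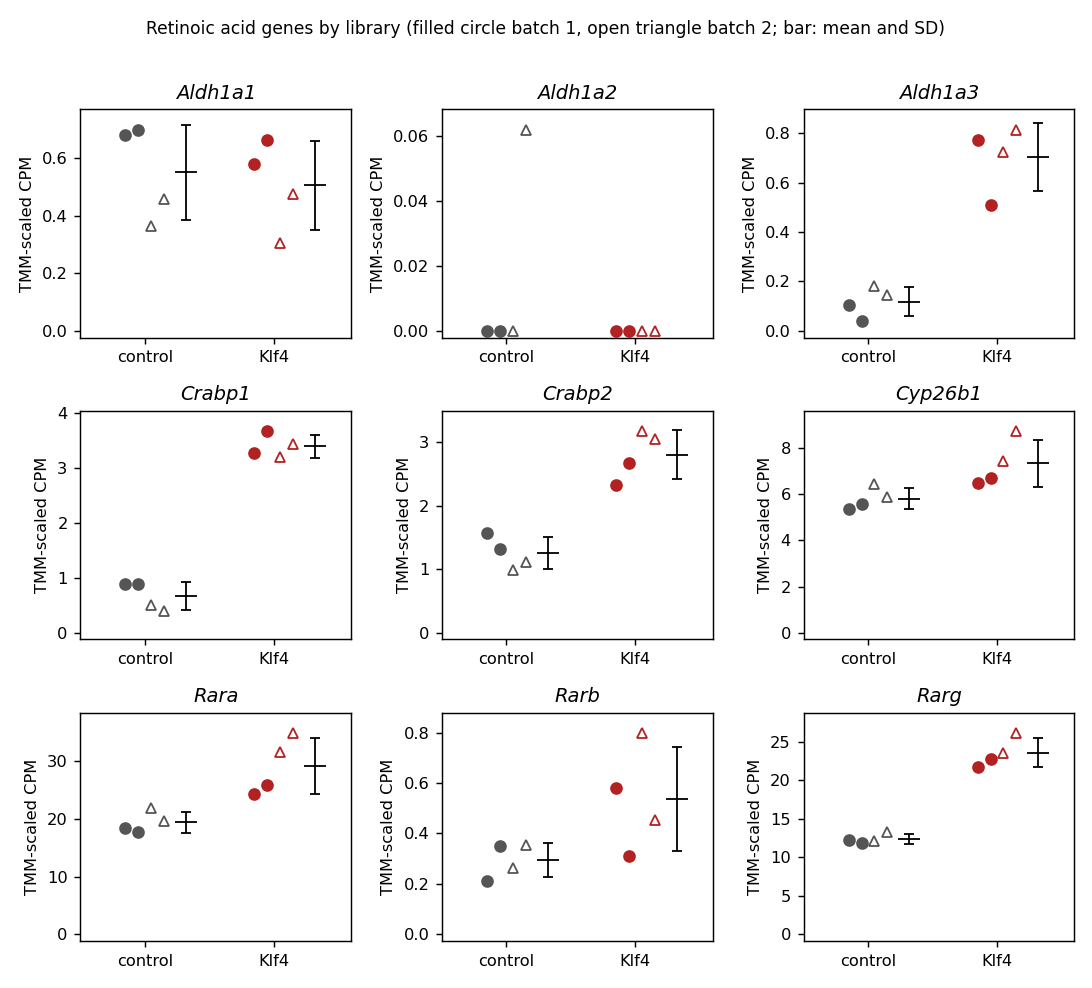
Normalised expression of the 9 retinoic acid genes in each library, as CPM (counts scaled to the size of the library and corrected by TMM factors, y axis), for control and Klf4-transfected cells (x axis). Filled circles are batch 1, open triangles are batch 2, and bars give the mean and SD of 4 libraries (left out for Aldh1a2, which had 3 counts in all). The groups do not overlap for Aldh1a3, Crabp1, Crabp2, Cyp26b1, Rara and Rarg, and they overlap for Aldh1a1 and Rarb.

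The libraries held 45417853 to 52731176 counts, and pairs of replicates differed by more than sampling noise (chi-square per degree of freedom 3.96 to 21.1), so all 8 were kept. Klf4 had 1743 to 2060 counts in control and 205171 to 308667 in Klf4-transfected libraries (log2 fold change 6.97, SE 0.07), which checks the labels, with plasmid and endogenous transcripts counted together. Counts were found for 24509 to 25446 genes in control and 26414 to 27216 in Klf4-transfected libraries. All 11 beta-cell markers were tested, summing to 25385 to 32163 CPM in control and 23704 to 32415 CPM in Klf4-transfected libraries, and 5 of them fell. Some markers of other cell types were called too, where 21.1% of all tested genes rose and 15.5% fell. Of 6 fibroblast or stellate markers, 3 were tested and Col1a1 and Dcn rose. All 6 summed to 2.61 to 3.86 CPM in control and 20.3 to 26.7 CPM in Klf4-transfected libraries, with Lum at 0 in all libraries. Of 3 ductal markers, 2 were tested, and both, Krt7 and Krt19, rose (all 3 summed 53.9 to 83.8 against 69.3 to 106.3 CPM). Of 3 endothelial markers, 2 were tested and Cdh5 rose (all 3 summed 3.82 to 4.15 against 4.49 to 4.95 CPM). Cdh5 and Kdr were at 0 in all control libraries. Cdh5 could thus reach the filter on low counts in its Klf4 libraries alone, so it had to differ to be tested. Of 3 immune markers 2 were tested and of 4 acinar markers 1, with none called and Prss1 at 0 in all libraries, and none of 3 delta or PP markers could be tested. The part of these cell types in the changes of the retinoic acid genes was not tested.

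The synthesis enzymes were among the scarcest transcripts of the set. Aldh1a3 (ENSMUSG00000015134, chromosome 7, 66390890 to 66427517, minus strand, mm10), which encodes a retinaldehyde dehydrogenase, had 5, 2, 9 and 7 counts in control replicates 1 to 4 and 40, 23, 38 and 43 counts in Klf4-transfected replicates 1 to 4. Every Klf4 library lay above every control library, although no library held more than 43 reads. Normalised expression went from 0.119 ± 0.0604 to 0.705 ± 0.137 CPM (mean ± SD of 4 libraries), with an edgeR log2 fold change of 2.57 ± 0.37 (SE, adjusted p 5.76e-06). Per exonic length this was 0.0257 ± 0.0131 RPKM (CPM per kilobase of exons) in control and 0.153 ± 0.0296 RPKM in Klf4-transfected cells, so the gene stayed in the lowest 5.5% of tested protein-coding genes.

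Aldh1a1 (ENSMUSG00000053279, chromosome 19, 20492715 to 20643465, plus strand), a second dehydrogenase of the family, had 32, 34, 18 and 22 counts in control and 30, 30, 16 and 25 counts in Klf4-transfected libraries. The groups overlapped throughout, and in both of them the batch 2 libraries were lower than the batch 1 libraries. The edgeR log2 fold change was -0.12 ± 0.27 (SE, adjusted p 0.791). Aldh1a7, a close relative on the same chromosome that could share reads with it, had 11 to 31 counts in control and 12 to 43 in Klf4-transfected libraries and did not pass either (edgeR log2 fold change 0.52 ± 0.31 SE, adjusted p 0.218). Aldh1a2 (ENSMUSG00000013584, chromosome 9, 71215789 to 71296243, plus strand), the main embryonic enzyme of the family, had 3 counts in control replicate 4 and 0 in the other 7 libraries. A count of 0 allows up to 3 counts per library, which is 0.0569 to 0.0661 CPM here and covers counting error only. That limit holds for the 7 libraries with 0 counts and not for control replicate 4. No difference in Aldh1a2 was detectable at this depth.

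In the summed RPKM of the ALDH1A genes, Aldh1a1 held 61.1% to 94.1% in the control libraries and 28.3% to 55% in the Klf4 libraries. Aldh1a3 held 5.92% to 34.8% in control and 45% to 71.7% in Klf4-transfected cells, so the larger share passed from Aldh1a1 to Aldh1a3 in 3 of 4 Klf4 libraries. The sum itself was 0.144 ± 0.0208 RPKM in control and 0.255 ± 0.03 RPKM in Klf4-transfected cells (SD, n = 4).

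Both carriers rose, Crabp1 the more. Crabp1 (ENSMUSG00000032291, chromosome 9, 54764748 to 54773110, plus strand) gave 42, 43, 25 and 19 reads in control and 169, 166, 168 and 181 in Klf4-transfected libraries. The control libraries of batch 2 were lower than those of batch 1, while the Klf4 libraries were nearly level. Normalised expression rose from 0.669 ± 0.257 to 3.39 ± 0.209 CPM (mean ± SD of 4 libraries), with an edgeR log2 fold change of 2.36 ± 0.18 (SE, adjusted p 3.59e-10). Crabp2 (ENSMUSG00000004885, chromosome 3, 87948666 to 87953376, plus strand), which passes retinoic acid to RARs in the nucleus, had 74, 64, 49 and 54 counts in control and 120, 121, 167 and 161 in Klf4-transfected libraries. It rose from 1.25 ± 0.252 to 2.81 ± 0.387 CPM (mean ± SD of 4 libraries), with an edgeR log2 fold change of 1.17 ± 0.17 (SE, adjusted p 6.21e-06). In control cells the share of Crabp1 in their summed RPKM was 36.7% to 52.6%, and in Klf4-transfected cells it was 62.4% to 69.9%, with no overlap between groups.

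Cyp26b1 (ENSMUSG00000063415, chromosome 6, 84571414 to 84593908, minus strand), the breakdown enzyme, rose least. It had 253, 272, 317 and 284 counts in control and 336, 303, 392 and 461 in Klf4-transfected libraries. The lowest Klf4 library, at 6.5 CPM, was just above the highest control library, at 6.43 CPM. The mean went from 5.82 ± 0.458 to 7.35 ± 1.02 CPM (mean ± SD of 4 libraries), with an edgeR log2 fold change of 0.33 ± 0.08 (SE, adjusted p 0.00335). Its relatives Cyp26a1, with 0 to 9 counts in control and 4 to 14 in Klf4-transfected libraries, and Cyp26c1, with 0 to 3 and 0 to 9 counts, were too low to test.

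Among the receptors, Rara and Rarg rose, and their libraries did not overlap between groups. Rara (ENSMUSG00000037992, chromosome 11, 98927818 to 98974942, plus strand), which encodes RARα, had 870, 864, 1079 and 950 counts in control and 1261, 1174, 1659 and 1842 in Klf4-transfected libraries. Normalised expression rose from 19.4 ± 1.81 to 29.2 ± 4.9 CPM (mean ± SD of 4 libraries), with an edgeR log2 fold change of 0.58 ± 0.06 (SE, adjusted p 1.59e-08). Rarg (ENSMUSG00000001288, chromosome 15, 102234938 to 102257517, minus strand), which encodes RARγ, the main RAR of epidermis, had 575, 575, 596 and 641 counts in control and 1126, 1032, 1239 and 1380 in Klf4-transfected libraries. It rose from 12.3 ± 0.643 to 23.6 ± 1.87 CPM (mean ± SD of 4 libraries), with an edgeR log2 fold change of 0.93 ± 0.06 (SE, adjusted p 5.29e-12). Its lowest Klf4 library, at 21.8 CPM, stood well clear of its highest control library, at 13.3 CPM.

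Rarb (ENSMUSG00000017491, chromosome 14, 16430839 to 16819156, minus strand), which encodes RARβ and is a textbook target of the receptors themselves, had 10, 17, 13 and 17 counts in control and 30, 14, 42 and 24 in Klf4-transfected libraries. Klf4 replicates 1, 3 and 4 lay above all control libraries and replicate 2 lay within their range. The mean of 0.294 ± 0.0683 CPM in control stood against 0.536 ± 0.207 CPM with Klf4 (SD, n = 4), an edgeR log2 fold change of 0.86 ± 0.34 (SE, adjusted p 0.0513). Over 19 alternative settings the adjusted p ran from 0.0281 to 0.237 and passed in 5. Among these, it passed without control replicate 2 (0.0331), without Klf4 replicate 2 (0.0281) or without Klf4 replicate 4 (0.0454). Exons of Rarb overlap those of Top2b and Gm48162 on the other strand over 2020 bases, and Top2b had 6826 to 9136 counts per library. The strand setting of the counting is not given in the sources used here, so reads of Rarb and of its neighbours cannot be told apart in the overlap.

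**Figure D2:**
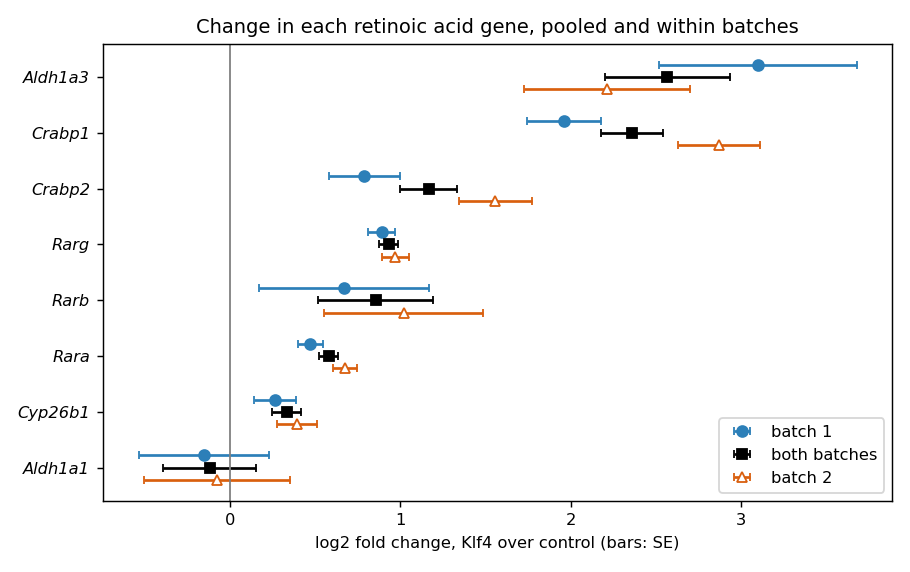
Log2 fold change of Klf4-transfected over control cells (x axis) for the 8 tested genes, from both batches together (squares), batch 1 (circles) and batch 2 (triangles), with bars of 1 SE. Aldh1a3 and Crabp1 lie farthest to the right at 2.57 and 2.36, and the bars for Aldh1a1 span 0.

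Promoter sequence is shown for Rarg and Crabp1, a receptor and a carrier gene that rose, and for Rarb, whose promoter is the classical site of a retinoic acid response element. Windows of 300 bases, 250 before and 50 after each RefSeq start (GRCm38.p6), were matched by symbol for 7 of the 9 genes, 12 windows in all. Motifs were searched on both strands. They were CACCC, the core of the box bound by Kruppel-like factors, the longer CCACCC, which contains it, and a direct repeat of GGTTCA and AGTTCA with any 5 bases between them. A repeat of AGGTCA and AGGTCA with the same spacing was found in no window of the set and in 0.00913% of all windows. The letters of the first repeat are those known from the Rarb element, so its presence there was given by the choice of motif. It began 53 bases before the Rarb start used here, and 2 of 32851 windows of all genes held it (0.00609%). That start, at 16575476, lies inside the gene, which reaches to 16819156 on its upstream side. The upstream end had no window. CACCC was found in 9 of the 12 windows of the set (5 of the 7 genes) and in 57.5% of all windows. CCACCC was found in 6 of the 12 windows (4 of the 7 genes) and in 31.5% of all windows. The Rarb and Aldh1a1 windows held neither. Rara windows 1 and 2 overlap and hold the same sites, which are thus counted in both. Counts by gene, where a gene can have several windows, are not comparable with the shares of all windows. A match is a string of letters in the window and says nothing about binding in these cells. The 250 bases before the start follow, with the direct repeat in capitals for Rarb (chr14:16575477-16575726, minus strand) and CCACCC in capitals for Rarg (chr15:102257523-102257772, minus strand) and Crabp1 (chr9:54764498-54764747, plus strand).
Rarb: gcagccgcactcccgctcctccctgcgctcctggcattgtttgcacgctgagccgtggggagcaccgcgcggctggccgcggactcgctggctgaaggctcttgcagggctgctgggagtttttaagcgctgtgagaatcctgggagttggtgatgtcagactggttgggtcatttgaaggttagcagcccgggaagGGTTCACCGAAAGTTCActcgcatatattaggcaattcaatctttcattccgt
Rarg: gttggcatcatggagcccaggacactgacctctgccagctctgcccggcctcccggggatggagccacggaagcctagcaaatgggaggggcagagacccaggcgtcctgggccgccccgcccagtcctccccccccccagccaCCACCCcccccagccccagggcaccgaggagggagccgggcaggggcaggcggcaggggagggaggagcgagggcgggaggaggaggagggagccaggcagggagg
Crabp1: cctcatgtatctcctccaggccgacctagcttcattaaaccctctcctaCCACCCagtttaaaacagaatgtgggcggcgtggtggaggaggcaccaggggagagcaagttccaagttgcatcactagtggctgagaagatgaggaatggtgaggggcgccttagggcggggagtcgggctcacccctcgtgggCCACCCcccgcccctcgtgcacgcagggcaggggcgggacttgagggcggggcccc
CCACCC was in a window of Rarg, Crabp1 and Rara, which rose, and of Aldh1a2, which was too low to test. It was in no window of Cyp26b1, which also rose, nor of Rarb and Aldh1a1, which did not pass. Aldh1a3 and Crabp2, which rose as well, had no window, so this tally leaves them out.

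Per exonic length, control cells held Rara at 4.46 ± 0.415 RPKM and Rarg at 2.9 ± 0.151 RPKM, above the other 7 genes (SD, n = 4). Cyp26b1 (1.09 ± 0.0856 RPKM), Crabp2 (0.945 ± 0.191) and Crabp1 (0.834 ± 0.32) followed, and neighbours among these 3 overlapped between libraries. Aldh1a1 (0.111 ± 0.0335 RPKM), Rarb (0.0559 ± 0.013) and Aldh1a3 formed the low end and did not overlap with each other. In Klf4-transfected cells Rara (6.69 ± 1.12 RPKM) and Rarg (5.53 ± 0.439) came first and overlapped. Crabp1 came next at 4.23 ± 0.26 RPKM, ahead of Crabp2 (2.12 ± 0.293) and Cyp26b1 (1.37 ± 0.19), with no overlap between these. Thus Crabp1 ranked 5 in the set in control and 3 in Klf4-transfected cells. The low end held Aldh1a3, Aldh1a1 (0.102 ± 0.0313 RPKM) and Rarb (0.102 ± 0.0394), which overlapped.

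The summed RPKM of the RAR genes went from 7.41 ± 0.465 in control to 12.3 ± 1.55 in Klf4-transfected cells (SD, n = 4). Rarg made up 35.9% to 40.5% of it in control and 42.8% to 47.3% in Klf4-transfected libraries, and Rara 58.6% to 63.5% and 51.7% to 56.2%. Rarb made up at most 1.18% in any library. The sum over Crabp1 and Crabp2 went from 1.78 ± 0.492 to 6.35 ± 0.358 RPKM (SD, n = 4). These sums are descriptions and carry no test.

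**Figure D3:**
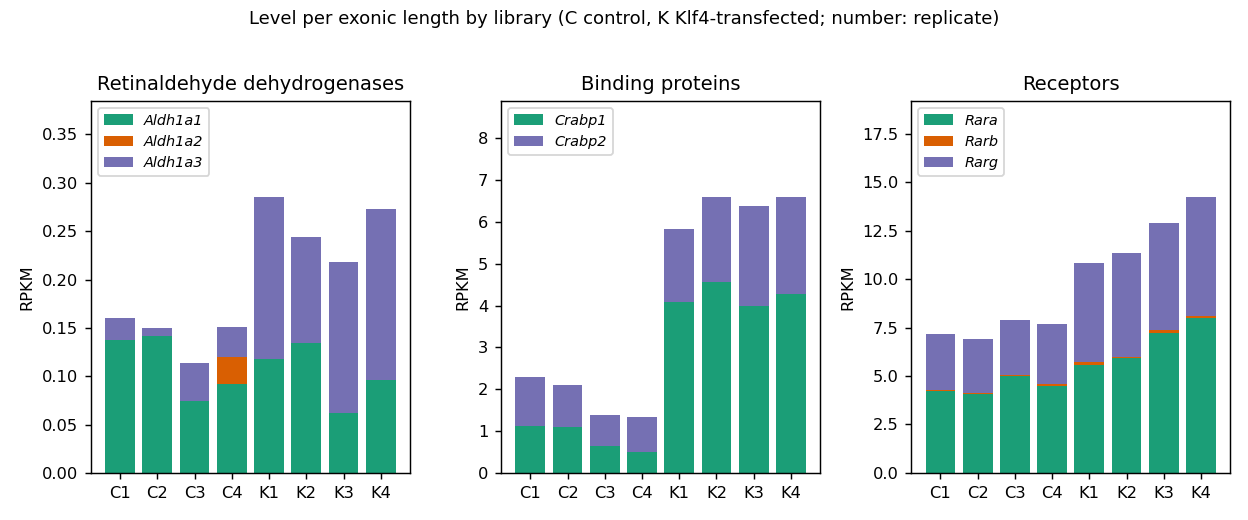
Stacked levels per exonic length (RPKM, y axis, from 0) of the ALDH1A, CRABP and RAR genes in each library (x axis: C control and K Klf4-transfected, with the replicate number). The ALDH1A sum stays under 0.3 RPKM in all libraries, the CRABP sum is 1.34 to 2.3 RPKM in control and 5.83 to 6.59 RPKM in Klf4-transfected libraries, and the RAR sum is 6.9 to 7.9 and 10.8 to 14.2 RPKM.

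The 6 genes that rose had the same sign in both batches, and within each batch both Klf4 libraries lay above both control libraries. Both points follow from the lack of overlap over all 8 libraries and add nothing to it. Changes within each batch (2 against 2 libraries) came from the same model of all 8 libraries, with an interaction of batch and plasmid. The batches thus shared their estimates of spread, and their results are not independent. Within batch 1, 5 of the 8 tested genes passed the threshold, against 23.5% of all tested genes. Within batch 2, 6 of the 8 passed, against 32% of all. Crabp1 rose by 1.96 in batch 1 and 2.87 in batch 2 on the log2 scale, Crabp2 by 0.79 and 1.56, Rara by 0.47 and 0.68, and Rarg by 0.89 and 0.97. Cyp26b1 had 0.27 in batch 1, where it did not pass (edgeR adjusted p 0.119), and 0.39 in batch 2. Aldh1a3 went the other way, with 3.10 and 2.21. The log2 fold change differed between batches for 0 of the 8 genes by edgeR's interaction test, against 0.766% of all tested genes, and for 2 of the 8 at an unadjusted p under 0.05, against 10.6% of all. These were Crabp1 (p 0.013, adjusted 0.287) and Crabp2 (p 0.0158, adjusted 0.315) in edgeR, and DESeq2 and limma-voom also called 0 of the 8. Klf4 itself rose by 6.79 in batch 1 and 7.16 in batch 2, a difference that passed the same test (edgeR adjusted p 0.0057).

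Levels were also compared between batches. With the plasmid held constant, 2 of the 8 tested genes differed between batches, a share near the 25.1% of all tested genes. Both were higher in batch 2. Rara was higher by 0.31 on the log2 scale (SE 0.06, edgeR adjusted p 0.000283), and its control libraries had 18.5 and 17.7 CPM in batch 1 against 21.9 and 19.7 CPM in batch 2. Cyp26b1 was higher by 0.24 (SE 0.08, edgeR adjusted p 0.0458). The call for Cyp26b1 held in 8 of 17 alternatives and was lost, among others, without control replicate 1 (0.0845) or 3 (0.11) and without Klf4 replicate 1 (0.127), 2 (0.0876) or 4 (0.172). Aldh1a1 was lower in batch 2 by a log2 difference of -0.71 (SE 0.27) that did not pass (edgeR adjusted p 0.0647).

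The rest of the pathway was read from a list of 63 genes, 62 of them in the table and 41 tested. Of these, 12 rose and 6 fell, against 21.1% and 15.5% of all tested genes, and their median log2 fold change was 0.03. Rbp7, Dhrs9 and Rdh16, 3 of the 12, reached the filter on low counts in their Klf4 libraries alone, so they had to differ to be tested and add to the count of higher genes by the way they entered it. The enzymes that interconvert retinol and retinaldehyde gave 6 of the 12 that rose, Dhrs9 and Rdh16 among them, with none lower among the 16 tested of 22 listed. Dhrs3, a reductase that returns retinaldehyde to retinol and is itself a known retinoic acid target, had 29, 31, 19 and 16 counts in control and 341, 259, 336 and 381 in Klf4-transfected libraries. It rose from 0.492 ± 0.157 to 6.48 ± 0.62 CPM (mean ± SD of 4 libraries), with an edgeR log2 fold change of 3.72 ± 0.17 (SE, adjusted p 1.93e-14), without overlap. Rdh10, the main oxidase from retinol to retinaldehyde in the embryo, had 499, 531, 399 and 458 counts in control and 721, 634, 738 and 748 in Klf4-transfected libraries (edgeR log2 fold change 0.53 ± 0.07 SE, adjusted p 3.08e-06). Dhrs9, a retinol dehydrogenase, had 3 counts over all control libraries and 138 over all Klf4 libraries. The ratio of these counts per library total was 44 (exact 95% interval 14.7 to 216, which covers counting error only and not the spread between libraries). The fitted log2 fold change of Dhrs9 was 5.25, and 6.10 without control replicate 4. Rdh16, another retinol dehydrogenase, had 0 to 4 counts in control and 17 to 51 in Klf4-transfected libraries (edgeR log2 fold change 3.88 ± 0.57 SE, adjusted p 7.95e-06). Rdh16 shares exonic bases with Rdh18-ps on the same strand, which leaves its counts uncertain. Dhrs7 and Rdh13 rose by 0.51 and 0.30 on the log2 scale. The alcohol dehydrogenases Adh1, Adh5 and Adh7 did not pass, with log2 fold changes of -0.06, -0.07 and -0.36.

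Among genes of retinol uptake, binding and storage, Rbp7 was the 1 of 5 tested that rose, a share near the 21.1% of all tested genes. This cytoplasmic retinol-binding protein gene had 4, 5, 0 and 0 counts in control and 159, 131, 206 and 215 in Klf4-transfected libraries (edgeR log2 fold change 6.15 ± 0.34 SE, adjusted p 1.2e-12). It was thus at 0 in both control libraries of batch 2, and there the fitted change rests on the prior count of the model. Without control replicate 2 the log2 fold change was 6.89. Stra6, the retinol uptake receptor gene, had a log2 fold change of 0.51 that did not pass (edgeR adjusted p 0.0732), although its libraries did not overlap. Ttr, which carries retinol-binding protein in plasma, was abundant at 577.1 ± 45.2 and 570.2 ± 26.8 CPM (SD, n = 4) and did not pass (log2 fold change -0.02).

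The RXR partners did not pass: Rxra had a log2 fold change of 0.00 (SE 0.04) and Rxrb one of -0.03 (SE 0.04). Fabp5, a carrier that passes retinoic acid to PPARδ, and Ppard, which encodes PPARδ, rose by 0.16 and 0.17 on the log2 scale, both with overlapping libraries. Both calls were lost without the batch term (edgeR adjusted p 0.366 and 0.0931), and with a correction for GC and length Ppard had a log2 fold change of 0.07 (adjusted p 0.191). Of 12 coregulator genes, 2 rose and 5 fell, all by under 0.2 on the log2 scale, where 21.1% and 15.5% of all tested genes rose and fell. Ncoa3 and Ncoa2, coactivators of nuclear receptors, rose by 0.17 and 0.14. The corepressor gene Ncor1, the acetyltransferase genes Crebbp and Ep300, the coactivator gene Ncoa1 and the methyltransferase gene Nsd1 had log2 fold changes of -0.16, -0.19, -0.13, -0.10 and -0.15. The calls for Ncoa1 and Ep300 were lost without Klf4 replicate 1 (edgeR adjusted p 0.0682 and 0.0656). They were also lost with scaling factors from abundant genes (0.163 and 0.0847).

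Of 10 other genes listed as induced by retinoic acid in many cell types, 4 were tested, 1 rose and 1 fell, against 21.1% and 15.5% of all tested genes, too few to describe the list. Tgm2, which encodes transglutaminase 2, had 81, 98, 56 and 61 counts in control and 1163, 1034, 1638 and 1890 in Klf4-transfected libraries. It rose from 1.53 ± 0.407 to 28.1 ± 6.53 CPM (mean ± SD of 4 libraries), with an edgeR log2 fold change of 4.18 ± 0.14 (SE, adjusted p 7.87e-17), more in batch 2 (4.80) than in batch 1 (3.60; edgeR interaction adjusted p 0.00106). Exons of Tgm2 overlap those of Rprd1b and Gm20412 on the other strand. Tshz1 fell by 0.11 on the log2 scale, and Meis1 and Meis2 had log2 fold changes of 0.05 and 0.09 that did not pass. The others, among them Stra8, Rarres1, Rarres2 and Cdx1, were too low to test. Of these, Cdx1 had 0 counts throughout the controls and 6, 9, 5 and 18 with Klf4. Summed over the libraries of a group, Rarres1 had 24 counts in control and 17 with Klf4, Stra8 10 and 6, and Rarres2 5 and 8.

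**Figure D4:**
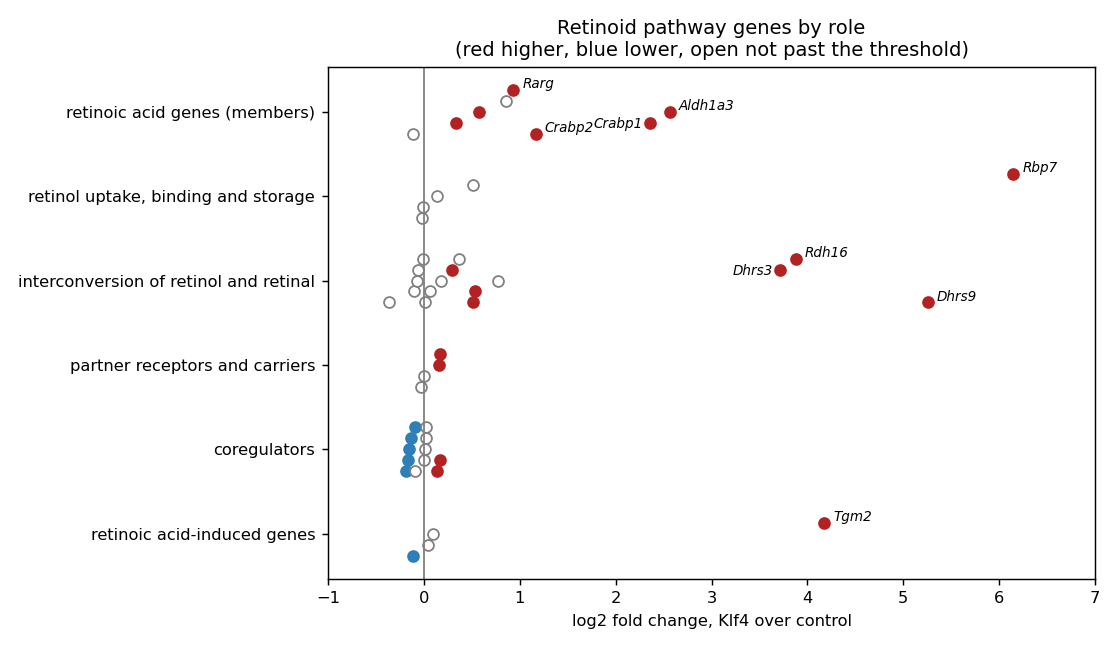
Log2 fold change of Klf4-transfected over control cells (x axis) for the tested retinoic acid genes (top row) and the tested genes of the wider pathway list by role (y axis). Red points rose, blue points fell and open points did not pass the threshold, and the names are those past 0.9. The 5 farthest points of the wider list are Rbp7 (6.15), Dhrs9 (5.25), Tgm2 (4.18), Rdh16 (3.88) and Dhrs3 (3.72).

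Aldh1a3 had the largest fitted change of the set over both batches, and was compared with 12012 other protein-coding genes whose mean log2 CPM reached 1. On log2(CPM + 1) over the 8 libraries the closest were Grm2, N4bp3 and Mybl2, with a Pearson r of 0.993, 0.992 and 0.990. In all, 1206 genes had an r above 0.9. A difference between the groups alone can give a high r, so these values do not show a pattern shared beyond it. The order of Aldh1a3 and Crabp1 was not stable: Crabp1 had the larger log2 fold change in batch 2 (2.87 against 2.21), without control replicate 2 (2.46 against 2.31) and without Klf4 replicate 1 (2.46 against 2.39).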

How the data were processed

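The authors deposited raw read counts per gene, 1 column per library, for 4 control and 4 Klf4-transfected libraries of polyadenylated RNA. The build was mm10, per the submitters' processing notes, which name FastQC, STAR, featureCounts and edgeR, and the name of the deposited counts adds cutadapt. The strand setting and annotation are not given in the sources used here. All 55536 pairs of identifier and symbol were those of GENCODE M21 (GRCm38, the assembly of mm10), which gave coordinates, overlaps and exonic lengths.

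Counts were analysed in edgeR 4.0.16 (limma 3.58.1, R 4.3.3). filterByExpr (minimum count 10) kept 18266 genes, TMM factors were 0.996 to 1.01, and glmQLFit and glmQLFTest were run on a model of batch and plasmid. Benjamini-Hochberg adjustment covered every tested gene. The SE of an edgeR log2 fold change was back-calculated, as its absolute value over the square root of the F statistic of the quasi-likelihood test. It is thus approximate, most so where control counts are near 0. CPM values are TMM-scaled, and RPKM values are CPM per kilobase of exons. On simulated counts for this comparison, 79% of 200 changed genes among 18266 were recovered, and 11 unchanged genes were called (6.51% of calls). The simulation changed a far smaller share of genes than the 36.6% called here, evenly up and down. None was changed by a fold as small as those of Fabp5 or the coregulators, so these rates may not carry over to the calls. Alternatives were other scalings and filters, no batch term, DESeq2 1.42.0, limma-voom, a correction for GC and length, a threshold of 0.01, and the omission of each library. The batch comparison was added after the data had been seen.

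The 9 genes and the lists were chosen with earlier results of these data known. All 9 were named, with up to 4 genes per role of the wider list in full (largest change first), others by log2 fold change alone, and the 3 genes closest in pattern to the gene of largest change. Aldh1a7 and genes of the wider list that did not pass (Stra6, Ttr, the Adh, Rxr, Cyp26, Meis and Rarres genes, Cdx1, Stra8) were named for their roles after their values were seen. Same-numbered libraries correlated at 0.46 to 0.61 in their deviations from the group means (10485 genes), and at -0.046 and 0.078 once batch means were removed, so the numbers of the sample titles paired libraries through the labelled batch. Some listed genes and 1 marker list are not reported here.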

Additional observations from a re-analysis of the deposited data

Results flagged for a closer look

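Klf4-transfected replicate 2 had 110.8 CPM of Crebbp, apart from the 105 to 105.3 CPM of the other Klf4 libraries. Gaps of this kind were looked for 54 times and found 1 time, while chance gives about 2.7.

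The effect of the plasmid differed between batches for Tgm2, by 1.20 on the log2 scale (batch 2 minus batch 1), and for Klf4, by 0.37, by edgeR's interaction test. None of the 8 tested retinoic acid genes did so, while 2 of them had an unadjusted p under 0.05.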

How the results depend on the processing

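The 6 retinoic acid genes that rose kept their direction and their call in every alternative in which they were tested. Their number ran from 5, under a filter of 1 CPM (4 or more libraries), where Aldh1a3 was not tested, to 7 where Rarb passed: without a filter (adjusted p 0.0378), with scaling factors from abundant genes (0.0473), or without control replicate 2, Klf4 replicate 2 or Klf4 replicate 4. With the correction for GC and length the log2 fold change of Rara was 0.46 and that of Cyp26b1 0.25. With the replicate number as a block 6284 genes changed over all, 6 of the set and 18 of the wider list, and none of the 26 single genes refitted lost or gained its call. Without the batch term 4116 genes changed, against 6684 with it, and Fabp5, Ppard, Ncoa1, Ncoa2, Ep300 and Tshz1 lost their calls. Ppard also lost its call with that correction (adjusted p 0.191). With factors from abundant genes 4387 of 6025 changed genes were higher, against 3856 of 6684. The number of retinoic acid genes that differed between batches was 1 without a filter, with factors from abundant genes, at an adjusted p under 0.01 and in DESeq2, and 1 to 2 when each library was left out, with Rara called each time. Over 26 single genes and 20 alternatives, 496 of 515 values kept direction and side of the threshold, 14 lost a call, 5 gained one and none changed sign. Aldh1a2, Aldh1a3, Aldh1a1 and Rarb had at most 43 counts in any library.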
